A study of Mus musculus with 15 samples.

Results

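Liver RNA of mice that ate a high-fat high-sucrose diet and were dosed with biotransformed bear bile powder (BBBPH) was compared with liver RNA of control mice, by 5 libraries each, 10 of the 15 libraries of the series. The 10 libraries were taken by their group labels, and the question was what still differed from control, or newly differed, in the dosed mice. BBBPH mice ate a diet with 0.2% cholesterol in which fat supplied 60%, protein 20% and carbohydrate 20% of the energy, and drank water with 42 g/L of sugar, of which 55% was sucrose and 45% fructose, for 20 weeks, as a model of nonalcoholic steatohepatitis. From week 12 they also received 150 mg/kg of the powder by mouth each day, in a group of 14 mice of which 5 were sequenced. The other 5 libraries (model) came from mice on the same diet given saline from week 12, and are set beside the comparison only to show whether a difference was also present without dosing. The labels give no diet, age, sex, strain or vehicle for the control mice, and the parts of diet, sugar water and dosing in a difference from control cannot be told apart in this comparison.

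Bear bile is rich in bile acids, which the liver makes from cholesterol, exports into bile and takes up again from the portal blood. Bile acids bind the nuclear receptor FXR, which induces the repressor SHP and thereby lowers the transcription of Cyp7a1, the rate-limiting enzyme of their synthesis. A diet of this kind loads hepatocytes with fat, and the fatty liver is known for stress of the endoplasmic reticulum, inflammation and altered lipid synthesis.

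Values are FPKM, fragments scaled to gene length and library depth, so levels are per length. Where 5 values are given, they stand in the order control 1_1, 1_5, 2_1, 2_2 and 3_4, BBBPH 2_1, 2_2, 3_1, 3_2 and 3_4, and model 1_1, 1_4, 2_1, 2_3 and 3_4. Of 17527 genes in the table, 9519 had a mean of at least 1 FPKM over the 10 libraries and were tested with limma on log2(FPKM + 1), in a fit that took its spread from all 15 libraries. Fold changes are on that scale, on which a gene near 1 FPKM shows less than its change in FPKM. An adjusted p under 0.05 made a call. The 10 libraries hold 35395424 to 39623878 fragments each, recovered from the FPKM. Nothing states how the libraries relate to cages or batches, so the p-values measure the spread between these libraries. Positions are those of GENCODE M21 on GRCm38. The strand setting of the counting is not given, so reads of overlapping genes on opposite strands may be mixed. Most genes were named by a rule given with the processing. For the largest changes, and for genes sorted by their change in the model, the rule took only genes whose control and BBBPH libraries did not overlap. For these genes, the lack of overlap stated below was a condition of naming and not a finding. The share of all genes tested without overlap is not given. Marco, Clec4f, Fabp2, Acaca, Acacb, Elovl6, Mlxipl, Ppara, Cpt1a, Baat, Cyp2c29, Gsta2, Alas1, Abcd2, Hsf1, Dnajb1, Dnaja1, Chordc1, Hspd1, Hspe1, Derl1, Hyou1, Creld2, Gadd45b, Cdkn1a, Glul, Cps1, Ass1 and Pklr fall outside it and were chosen after their values were seen.

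Of the 9519 genes, 2691 (28.3%) were called between BBBPH and control, 2333 of them higher in BBBPH (24.5% of the genes tested) and 358 lower (3.76%). Counts of list members given below are to be read beside these shares. Over all genes the log2 fold change had a median of 0.132, above 0. The excess of higher calls depended on the scaling: with median-ratio scaling, which moved that median by -0.147, 656 calls lay above control and 944 below. Quantile scaling moved the median by -0.129 and gave 713 and 868. Without control 2_1 and BBBPH 2_2, 1726 were higher and 266 lower. In a principal component analysis of the 10 libraries the controls lay at -22.07 to -13.32 and the BBBPH libraries at 7.08 to 31.14 on the first component, which held 39.96% of the variance. The value of 31.14 was that of BBBPH 2_2, and the next highest was 17.87. On the second component, with 18.17%, BBBPH 2_2 lay at 26.18 and the other libraries at -15.32 to 5.23. In the same fit 38.0% of the genes were called between model and control and 26.2% between BBBPH and model. These comparisons share libraries with the one described here, so their values are only set side by side.

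All 7 hepatocyte markers were tested, and their summed level was 59000 to 67100 FPKM in control and 53500 to 63900 in BBBPH libraries, so the label of liver held in every library. Of these 7 markers 1 was called higher in BBBPH and 3 lower. Some libraries held RNA of other tissues or stood apart. The 16 pancreatic acinar markers summed to 5130 FPKM in BBBPH 2_2, against 22.0 in the median of its group and 17.4 in that of the controls, and the 12 skeletal muscle markers to 475 FPKM in control 2_1 against 1.45 in the control median. Neutrophil markers summed to 140 FPKM in BBBPH 2_2, against 12.2 in the median of its group and 6.03 in that of the controls. None of the pancreatic, muscle or neutrophil markers tested was called (14, 8 and 3 genes). Without control 2_1 and BBBPH 2_2, 1 pancreatic, 1 muscle and 2 neutrophil markers passed the filter. Most pancreatic and muscle markers were thus tested only through these libraries, and a gene high in 1 library has a wide spread. The lack of calls therefore does not show that the comparison was unaffected. BBBPH 2_1 stood apart in clock genes, described further on. Control 2_1 and BBBPH 2_2 were therefore left out together as an alternative, and list counts of 3 or more that this moved by over 1.5 times are given.

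**Figure D1:**
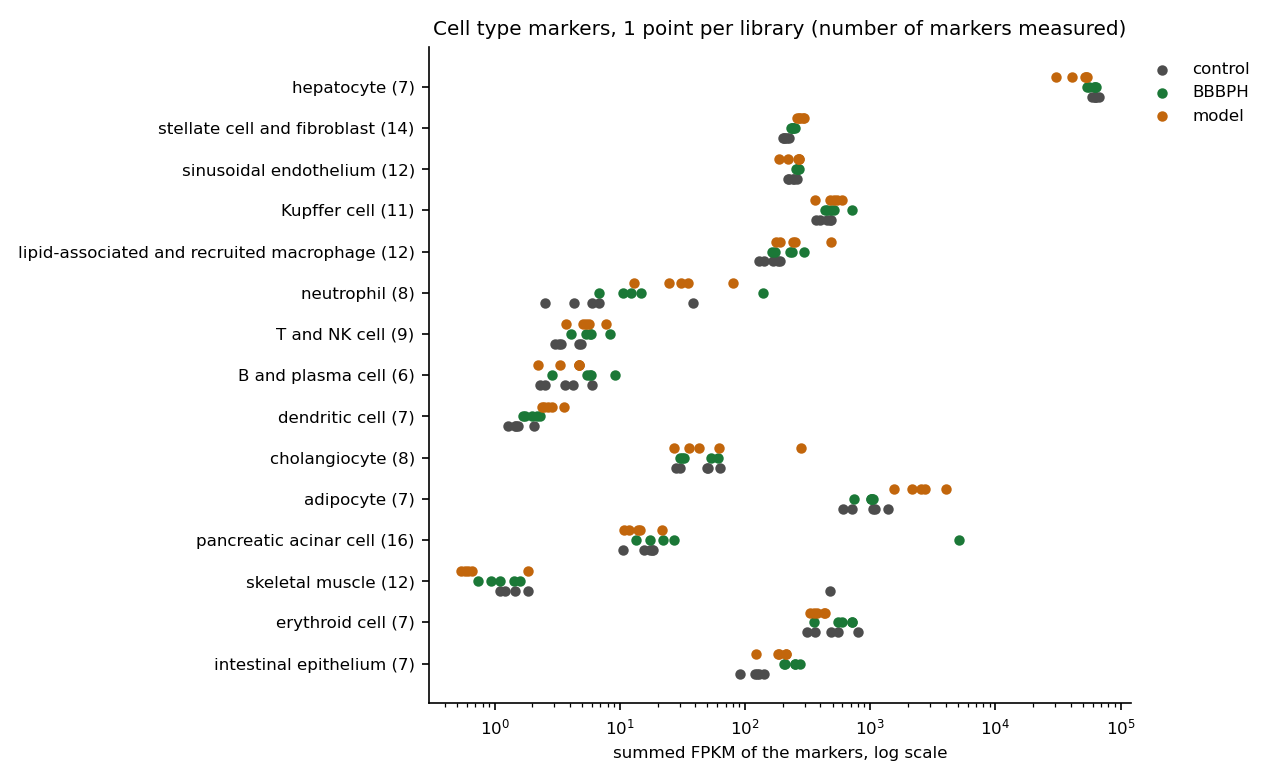
Summed FPKM of the markers of 15 cell types and tissues (log axis), 1 point for each of the 5 control, 5 BBBPH and 5 model libraries. Pancreatic markers stand at 5130 FPKM in 1 BBBPH library and muscle markers at 475 FPKM in 1 control library, and the hepatocyte sums of control and BBBPH libraries overlap.

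Among cells that a liver holds, 4 of 12 tested markers of stellate cells and fibroblasts were higher in BBBPH and 0 lower, with sums of 200 to 224 FPKM in control and 234 to 251 in BBBPH libraries. None of the 4 was called with median-ratio or quantile scaling, and 2 markers were called without control 2_1 and BBBPH 2_2. The median log2 fold change of the 12 was 0.226, beside 0.132 for all genes, and 0.078 with median-ratio scaling. The sums are on FPKM without rescaling, on which 24.5% of all genes tested were called higher. Of 11 Kupffer cell markers 1 rose, Marco, a scavenger receptor of macrophages. Control libraries held 7.58, 10.1, 11.6, 11.1 and 7.03 FPKM of Marco, and BBBPH libraries 26.1, 37.3, 81, 45.1 and 16.9. No BBBPH library lay within the range of the controls (log2 fold change 1.84 ± 0.32 SE, adjusted p = 0.00129). Clec4f, which defines Kupffer cells, had means of 43.6 ± 4.42 FPKM in control and 46.5 ± 8.66 in BBBPH and was not called (log2 fold change 0.08 ± 0.14 SE, adjusted p = 0.702). One marker of 12 was called higher for sinusoidal endothelium and 1 of 1 for intestinal epithelium, 1 of 5 was lower for erythroid cells, and 0 were called among the tested markers of recruited macrophages (5), lymphocytes (1 for T and NK, 1 for B and plasma), cholangiocytes (3) and adipocytes (1). The intestinal marker was Fabp2, which is also on the lipid uptake list, with means of 120 FPKM in control and 237 in BBBPH. It does not show intestinal tissue. No dendritic cell or kidney marker passed the filter. In bulk tissue, fewer cells of a type and less RNA per cell cannot be told apart, and this holds for every gene below.

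Among the genes named by the rule, Scd1, the stearoyl-CoA desaturase that makes monounsaturated fatty acids, showed the largest fall. For Scd1, the controls stood at 3528, 2525, 2431, 1716 and 2010.0 FPKM and the BBBPH libraries at 226, 129, 39.4, 72.7 and 110.2. Every BBBPH library lay below every control library (log2 fold change -4.57 ± 0.41 SE, adjusted p = 1.77e-05). Model libraries lay in between, from 321 to 1275 FPKM. In BBBPH against model Scd1 was lower too (log2 fold change -2.90 against model, adjusted p = 0.000152). Cyp2b9, a P450 of the female mouse liver that is nearly silent in males, showed the largest rise. Levels of Cyp2b9 were 0.12, 0.183, 0.0266, 0.0518 and 0.0679 FPKM in control and 22.7, 80.1, 7.88, 43.7 and 57.6 in BBBPH. It was close to 0 in all 5 controls and between 7.88 and 80.1 FPKM in BBBPH libraries (log2 fold change 4.96 ± 0.52 SE, adjusted p = 4.87e-05), and in model libraries it was at 134, 39, 137, 58.9 and 30.4 FPKM. With control values far below the pseudocount of 1, its log2 fold change ran from 4.62 to 8.65 over the alternatives. BBBPH and model were not called different in Cyp2b9 (log2 fold change -0.99 against model, adjusted p = 0.174).

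**Figure D2:**
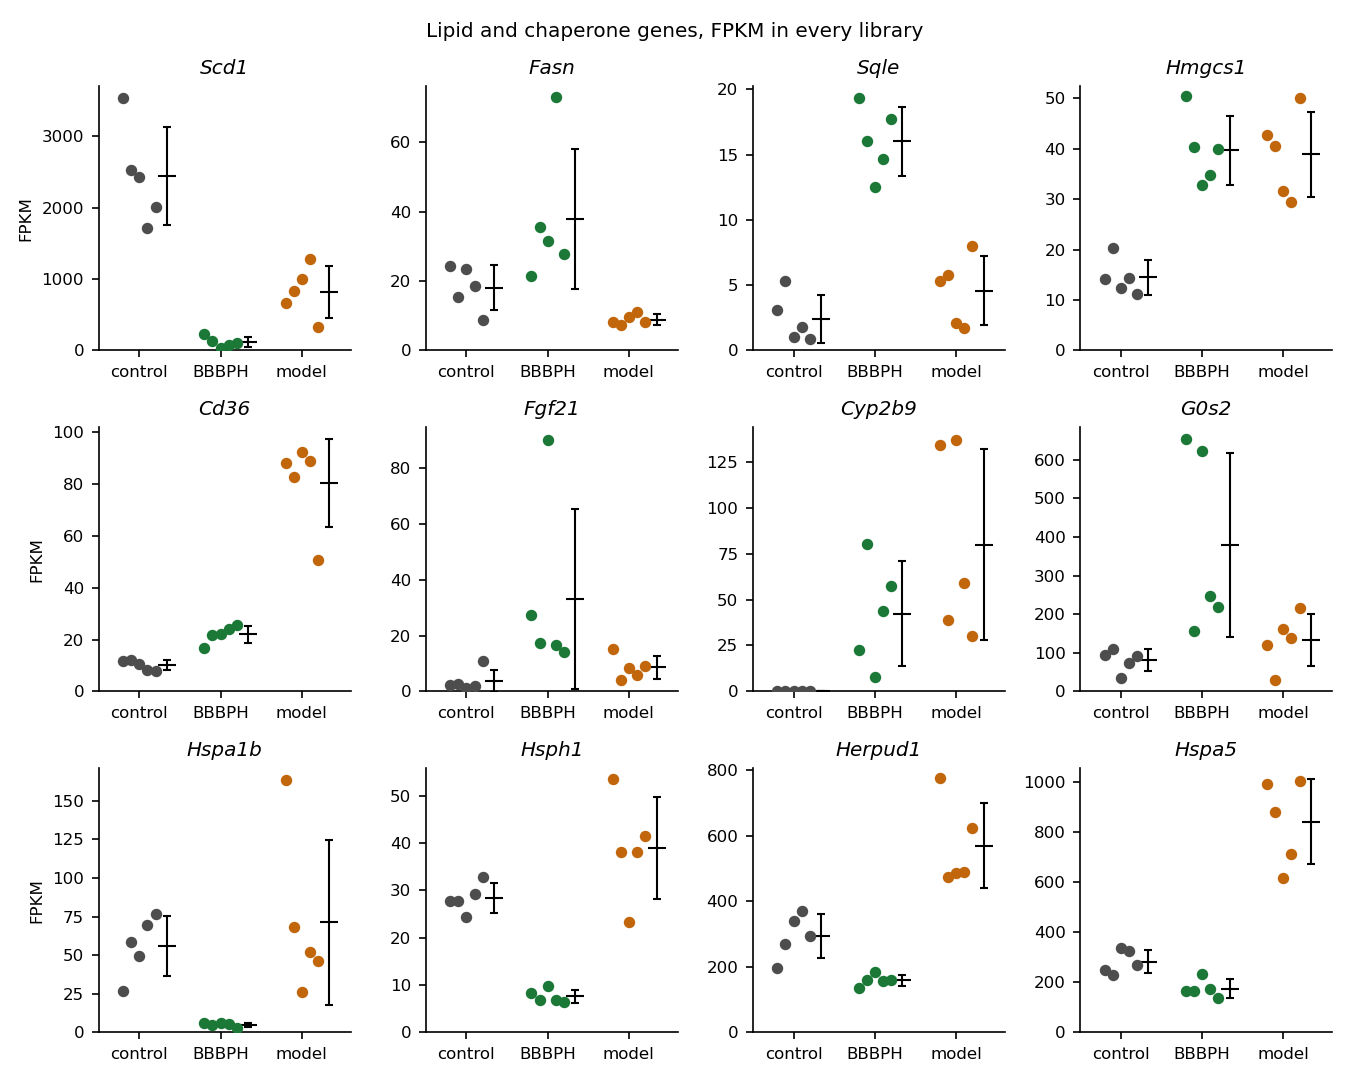
FPKM (linear axis) of 12 genes of lipid metabolism and protein folding in every library, with the mean and SD of each group of 5 as a bar beside the points. Scd1, Hspa1b and Hsph1 are low in all BBBPH libraries, Sqle is higher in all BBBPH libraries than in any other library, and Hmgcs1 is high in both diet-fed groups.

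Genes of cholesterol synthesis were higher in BBBPH livers from the entry of the pathway, Hmgcs1, to a late step, Dhcr7. Of 23 members, all tested, 16 rose and 0 fell, with a median log2 fold change of 0.733 against 0.132 for all genes. The count was 14 higher and 1 lower with median-ratio scaling and 14 higher without control 2_1 and BBBPH 2_2. In model against control 4 members were higher and 2 lower, and in BBBPH against model 15 higher and 1 lower.

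Sqle, the squalene epoxidase and a flux-controlling step of the late pathway, lies at chromosome 15, 59315077 to 59331192. Sqle stood at 3.12, 5.33, 1.01, 1.8 and 0.894 FPKM in control libraries and at 19.3, 16.1, 12.5, 14.7 and 17.7 in BBBPH libraries. The lowest BBBPH value was above the highest control value (log2 fold change 2.45 ± 0.35 SE, adjusted p = 0.000368), and above all 5 model libraries, at 5.33, 5.74, 2.1, 1.73 and 8 FPKM. Idi1, which isomerises the isoprenoid building block, rose as well (log2 fold change 1.98 ± 0.33 SE, adjusted p = 0.000963). Control libraries held 3.63, 7.23, 1.63, 3.05 and 1.22 FPKM of Idi1, and BBBPH libraries 13.2, 18.6, 10.8, 16.9 and 13.4. Fdps, which makes farnesyl diphosphate, had means of 37.1 ± 16.2 FPKM in control and 113 ± 29 in BBBPH and rose (log2 fold change 1.67 ± 0.30 SE, adjusted p = 0.00149). It was called against model too (log2 fold change 1.46 against model, adjusted p = 0.00231). Cyp51 and Nsdhl, which remove methyl groups from lanosterol, rose from 11.2 ± 3.37 to 30.5 ± 5.27 FPKM and from 8.76 ± 4.35 to 23 ± 8.24 FPKM, with log2 fold changes of 1.40 and 1.36 (adjusted p = 0.00083 and 0.00451). For Sqle, Idi1, Fdps, Cyp51 and Nsdhl, model against control was not called, with log2 fold changes of 0.71, 0.42, 0.20, 0.23 and 0.07.

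Hmgcs1, the synthase at the entry of the pathway, was high in the model as well. For Hmgcs1, the controls stood at 14.1, 20.3, 12.4, 14.4 and 11.2 FPKM and the BBBPH libraries at 50.4, 40.4, 32.8, 34.8 and 39.97. Model libraries held 42.6, 40.4, 31.6, 29.5 and 50.1 FPKM, so that both diet-fed groups lay above all controls (log2 fold change 1.40 ± 0.16 SE, adjusted p = 0.0001) and were not called different from each other (log2 fold change 0.04 against model, adjusted p = 0.879). Srebf2, the transcription factor that drives the pathway, rose from 4.8 ± 0.621 to 8.66 ± 1.3 FPKM (log2 fold change 0.73 ± 0.09 SE, adjusted p = 0.00017), and rose in the model (log2 fold change 0.51 in model against control, adjusted p = 0.000727).

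The promoters of these genes were searched for the sterol element TCACNCCAC on both strands, because SREBP2 binds such elements. RefSeq promoters on GRCm38.p6, 250 bases before to 50 bases after a start site, were at hand for 14 of the 16 genes that rose. The motif was found in 1 of them, Hmgcs1, and in 1.46% of the promoters of 7716 tested genes and 1.44% of 27025 genes. The stretch around it lies at chr13:119690194-119690242, on the plus strand, and begins 157 bases before the start site, with the motif in capitals.
Hmgcs1: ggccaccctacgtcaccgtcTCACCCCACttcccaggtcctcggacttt
A match is only a match of letters, and its absence from the other 13 windows says nothing about binding.

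De novo lipogenesis turns citrate into fatty acids, and its members moved apart from Scd1. Of 18 tested members 9 rose and 1, Scd1, fell (median log2 fold change 0.384). Fewer were called higher with median-ratio scaling (3), without control 2_1 and BBBPH 2_2 (4) and without control 3_4 (5), and 1 was lower in each. In model against control 1 member was higher and 10 lower. Fasn, the fatty acid synthase, had the following values. Levels of Fasn were 24.3, 15.4, 23.5, 18.6 and 8.76 FPKM in control and 21.6, 35.5, 31.6, 72.9 and 27.9 in BBBPH. The groups overlapped, with the highest control at 24.3 and the lowest BBBPH library at 21.6 FPKM (log2 fold change 0.98 ± 0.28 SE, adjusted p = 0.0197). Model libraries were lower than control (log2 fold change -0.88 in model against control, adjusted p = 0.0234), at 8.12, 7.45, 9.57, 11.1 and 8.21 FPKM. Fads1, a desaturase of polyunsaturated fatty acids, rose from 178 ± 33.5 to 283 ± 45.4 FPKM (log2 fold change 0.67 ± 0.15 SE, adjusted p = 0.00498), while the model lay below control (log2 fold change -0.89 in model against control, adjusted p = 0.000419). Acaca and Acacb, the acetyl-CoA carboxylases, had log2 fold changes of 0.62 and 0.69 (adjusted p = 0.0316 and 0.0242), against -0.95 and -0.90 in model against control. Srebf1, the regulator SREBP1, had means of 20.2 ± 6.94 FPKM in control and 27.3 ± 8.8 in BBBPH and was not called (log2 fold change 0.43 ± 0.25 SE, adjusted p = 0.201). Elovl6, the elongase of palmitate, was not called either (log2 fold change -0.24 ± 0.26 SE, adjusted p = 0.507), although it was lower than control in the model (log2 fold change -2.06 in model against control, adjusted p = 4.88e-05). The sterol element was in 1 of 8 promoters of the 9 genes that rose, that of Mlxipl, which encodes the carbohydrate sensor ChREBP.

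Some genes of lipid droplets and fatty acid uptake were higher in the dosed livers than in control. Of 24 tested members 13 rose and 1, Slc27a5, fell (median log2 fold change 0.465), 8 and 2 with median-ratio scaling. The fatty acid transporter Cd36 showed an intermediate level. Cd36 stood at 11.6, 12, 10.4, 8.31 and 7.79 FPKM in control libraries and at 16.9, 21.7, 22.1, 24.1 and 25.6 in BBBPH libraries. All BBBPH libraries exceeded all controls (log2 fold change 1.07 ± 0.16 SE, adjusted p = 0.000575), and all model libraries, at 87.9, 82.6, 92.2, 88.9 and 50.6 FPKM, exceeded all BBBPH libraries (log2 fold change -1.80 against model, adjusted p = 5.06e-06). Plin3, a droplet coat protein, rose from 8.79 ± 0.856 to 21.4 ± 4.78 FPKM (log2 fold change 1.17 ± 0.13 SE, adjusted p = 8.93e-05) and was not called between BBBPH and model (log2 fold change 0.16 against model, adjusted p = 0.419). Plin2, the main coat protein of hepatocyte droplets, rose from 159.9 ± 51.7 to 298 ± 117 FPKM with overlapping groups (log2 fold change 0.86 ± 0.24 SE, adjusted p = 0.015), and lost its call with median-ratio scaling (adjusted p = 0.0684, 0.00618 to 0.0684 over the alternatives). G0s2, an inhibitor of the triglyceride lipase ATGL, stood out in 2 libraries. Control libraries held 93.6, 110.4, 35.6, 73.7 and 90.8 FPKM of G0s2, and BBBPH libraries 654, 156, 624, 247 and 217. BBBPH 2_1 and 3_1 were the highest, and no BBBPH library fell into the control range (log2 fold change 2.07 ± 0.51 SE, adjusted p = 0.00835). G0s2 was also above model (log2 fold change 1.52 against model, adjusted p = 0.0371), which was not called against control (log2 fold change 0.56 in model against control, adjusted p = 0.403). Cidec, which fuses droplets, had means of 1.75 ± 0.7 FPKM in control and 5.72 ± 2.98 in BBBPH and was not called (log2 fold change 1.21 ± 0.51 SE, adjusted p = 0.0857), except in a fit of 2 groups or without model 2_3 or 3_4 (adjusted p between 0.0147 and 0.195 over the alternatives).

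Genes of fatty acid oxidation, many of them induced by the receptor PPAR-alpha, were higher where they were called. Of 30 tested members 18 rose and 0 fell (median log2 fold change 0.364), 6 with median-ratio scaling, 11 with quantile scaling and 12 without control 2_1 and BBBPH 2_2. Vnn1, a pantetheinase and PPAR-alpha target, had one of the smallest adjusted p-values. For Vnn1, the controls stood at 25.4, 27.4, 16.1, 17.9 and 24.9 FPKM and the BBBPH libraries at 80.3, 67.9, 123, 84.1 and 82.5. BBBPH and model libraries, the latter at 82.2, 88.5, 92.5, 106 and 70.7 FPKM, lay in the same range above all controls (log2 fold change 1.92 ± 0.17 SE, adjusted p = 1.44e-05). Fgf21, a liver hormone of fasting and nutrient stress, rose in every BBBPH library. Levels of Fgf21 were 2.22, 2.62, 1.23, 1.91 and 10.8 FPKM in control and 27.5, 17.2, 90.1, 16.7 and 14.3 in BBBPH. Control 3_4 stood above the other controls and BBBPH 3_1 above the other BBBPH libraries, without overlap of the groups (log2 fold change 2.76 ± 0.50 SE, adjusted p = 0.00148). Fgf21 was higher than in the model too (log2 fold change 1.57 against model, adjusted p = 0.0293), where it was not called against control (log2 fold change 1.19 in model against control, adjusted p = 0.0704). Bdh1, which interconverts the ketone bodies, rose from 67.7 ± 4.02 to 126 ± 21.5 FPKM (log2 fold change 0.87 ± 0.12 SE, adjusted p = 0.000368), and rose in the model (log2 fold change 0.52 in model against control, adjusted p = 0.00434). Ppara itself had a log2 fold change of 0.53 (adjusted p = 0.00473) and Cpt1a, the gate of mitochondrial import, 0.40 (adjusted p = 0.00449).

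**Figure D3:**
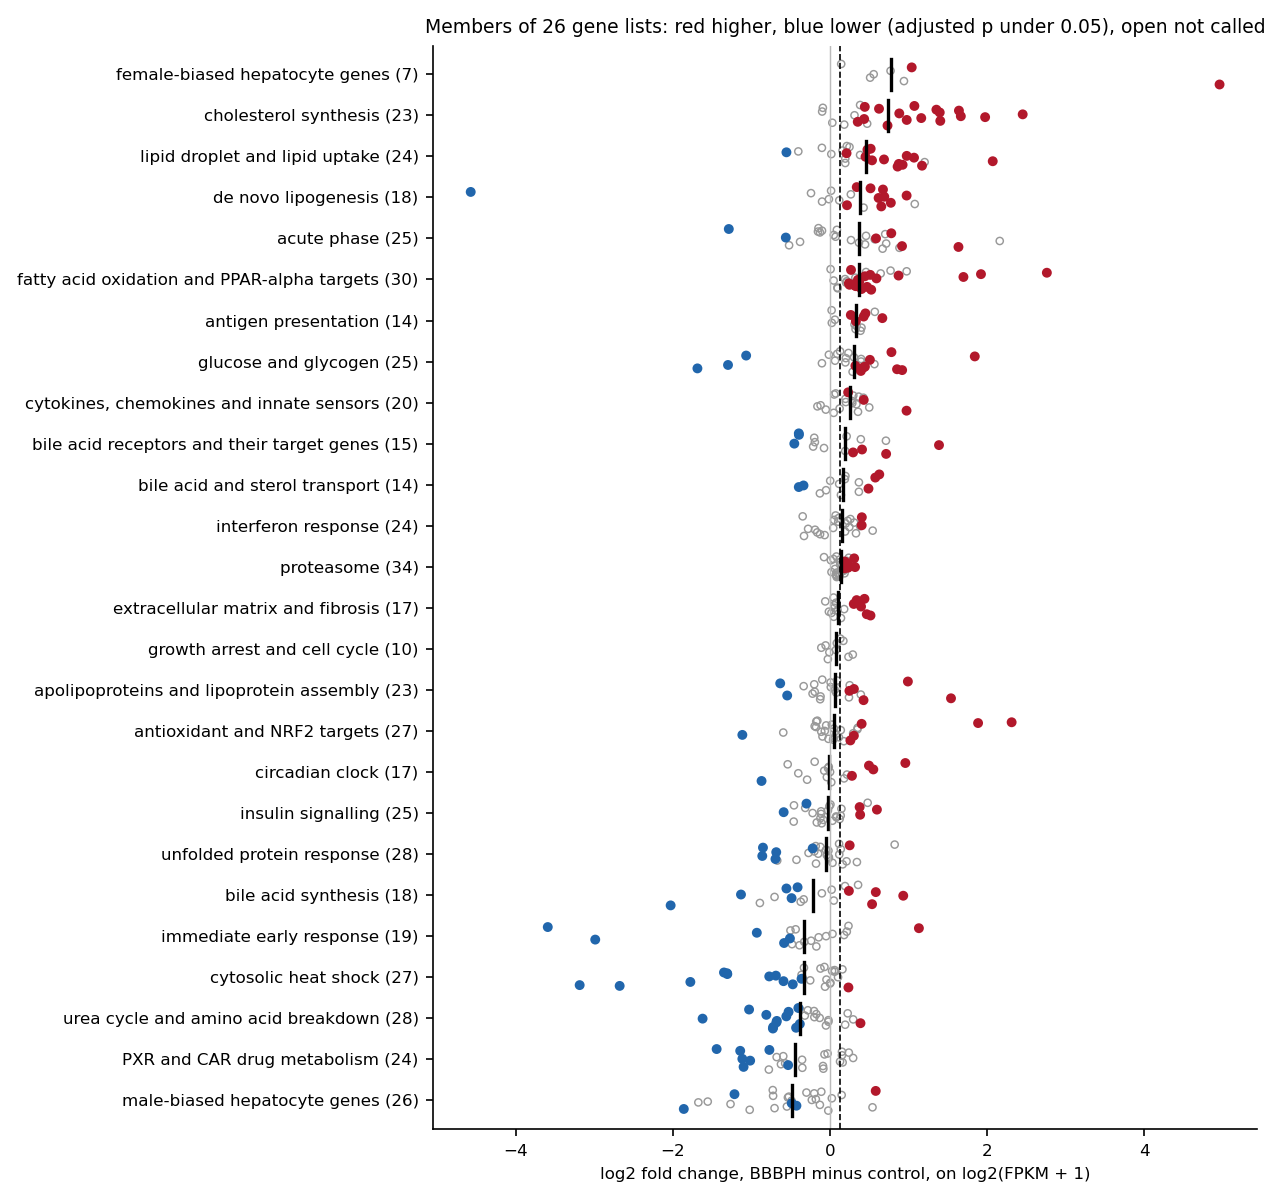
Log2 fold change of BBBPH minus control for each tested member of 26 gene lists (number tested in brackets), with called members in red or blue, the list median as a black bar and the median of all genes, 0.132, as a dashed line. Cholesterol synthesis has 16 of 23 members called higher, and heat shock 11 of 27, drug metabolism 7 of 24 and amino acid breakdown 13 of 28 called lower.

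Bile acid synthesis genes moved in both directions. Of 18 tested members 4 rose and 5 fell (median log2 fold change -0.219), against 1 and 8 with median-ratio scaling and 3 and 3 without control 2_1 and BBBPH 2_2. The share that rose was near the 24.5% of all genes tested, and the share that fell was above their 3.76%. Cyp7a1, at chromosome 4, 6265612 to 6275633, varied widely in the dosed livers. Cyp7a1 stood at 28.4, 59.8, 38.4, 30.7 and 12.1 FPKM in control libraries and at 1.87, 13.3, 0.696, 8.87 and 36.5 in BBBPH libraries. BBBPH 2_1 and 3_1 were the lowest, and BBBPH 2_2 and 3_4 lay within the control range. Its fall was called narrowly (log2 fold change -2.03 ± 0.67 SE, adjusted p = 0.0357). The call was lost without control 1_1, 1_5, 2_1 or 2_2 or BBBPH 2_1, 3_1 or 3_2, and with no filter, a robust fit, a fit of 2 groups, or 2 or 3 libraries out (adjusted p between 0.00736 and 0.0841 over the alternatives). Cyp8b1, the sterol hydroxylase needed for cholic acid, had these values. Control libraries held 87.3, 127, 94.9, 79.6 and 73.9 FPKM of Cyp8b1, and BBBPH libraries 134, 30.7, 33.7, 32.8 and 58.3. Apart from BBBPH 2_1, at 134 FPKM, every BBBPH library lay below every control. Cyp8b1 was not called (log2 fold change -0.89 ± 0.35 SE, adjusted p = 0.0696), except without BBBPH 2_1 (log2 fold change -1.25, adjusted p = 0.00423) and with library weights, and was below model (log2 fold change -1.89 against model, adjusted p = 0.00122).

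Other steps of the pathway moved in both directions. Cyp27a1, which opens the acidic pathway, fell from 178 ± 19.6 to 127 ± 14.2 FPKM (log2 fold change -0.49 ± 0.11 SE, adjusted p = 0.00501), and fell in the model (log2 fold change -0.29 in model against control, adjusted p = 0.0425). Cyp7b1, its next hydroxylase, had means of 117 ± 21.3 FPKM in control and 77.7 ± 37.5 in BBBPH and was not called (log2 fold change -0.71 ± 0.28 SE, adjusted p = 0.0668), except with median-ratio scaling, with library weights or without BBBPH 2_1 or 3_1 (adjusted p between 0.0232 and 0.273 over the alternatives). Cyp39a1, which hydroxylates oxysterols, went the other way. For Cyp39a1, the controls stood at 14.3, 11.9, 13.9, 20.1 and 17.3 FPKM and the BBBPH libraries at 24.9, 43, 38.6, 27.5 and 21.4. All BBBPH libraries exceeded all controls (log2 fold change 0.93 ± 0.22 SE, adjusted p = 0.00668), and model libraries were below control (log2 fold change -0.82 in model against control, adjusted p = 0.00835). Cyp2c70, which makes the muricholic acids of mice, fell from 199 ± 48 to 93.1 ± 34.1 FPKM (log2 fold change -1.13 ± 0.22 SE, adjusted p = 0.0026) and was likewise low in the model, with 78.6 FPKM (log2 fold change -1.33 in model against control, adjusted p = 0.0004). Slc27a5, the ligase that activates bile acids for conjugation, fell from 376 ± 42 to 256 ± 30.7 FPKM (log2 fold change -0.55 ± 0.10 SE, adjusted p = 0.00141). Baat, the conjugating enzyme itself, had a log2 fold change of -0.41 (adjusted p = 0.0138).

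Of 15 tested bile acid receptors and target genes 4 rose and 3 fell, against 2 and 5 with median-ratio scaling and 3 and 1 without control 2_1 and BBBPH 2_2. Of all genes tested 24.5% were higher and 3.76% lower. The rises were those of 3 of 6 tested receptors and of Nr0b2. Of the 8 other FXR targets tested 0 rose and 3 fell, among them Cyp4f15 and Abcb11. Nr1h4, which encodes FXR, rose. Levels of Nr1h4 were 46.3, 55.6, 52.7, 47.1 and 44 FPKM in control and 64.4, 88.4, 88.3, 83.5 and 83.1 in BBBPH. BBBPH 2_1 was the lowest of its group and still above every control (log2 fold change 0.71 ± 0.11 SE, adjusted p = 0.000625). In model libraries Nr1h4 was not called against control (log2 fold change 0.10 in model against control, adjusted p = 0.489), and BBBPH was above model (log2 fold change 0.61 against model, adjusted p = 0.000911). Nr0b2, which encodes SHP, rose too. Nr0b2 stood at 6.96, 5.31, 7.89, 5.83 and 4.28 FPKM in control libraries and at 12.6, 16.2, 31.3, 15.6 and 14.7 in BBBPH libraries. BBBPH 3_1 was the highest of its group, and all 5 lay above the controls (log2 fold change 1.39 ± 0.35 SE, adjusted p = 0.00973). The model was above control too (log2 fold change 0.98 in model against control, adjusted p = 0.0379), and BBBPH and model were not called different (log2 fold change 0.41 against model, adjusted p = 0.411). Cyp4f15, an omega-hydroxylase, fell from 56.7 ± 3.44 to 41.2 ± 3.91 FPKM (log2 fold change -0.45 ± 0.07 SE, adjusted p = 0.000773), and fell in the model (log2 fold change -0.41 in model against control, adjusted p = 0.000615).

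Of 14 tested transporters of bile acids and sterols 3 rose and 2 fell, with 5 and 1 without BBBPH 2_1 and 2 and 1 without control 2_1 and BBBPH 2_2. Of all genes tested 24.5% were higher and 3.76% lower. Abcc3, which exports bile acids back to blood, had a middle level in the dosed livers. Control libraries held 28.7, 27.3, 24.2, 24.4 and 24.3 FPKM of Abcc3, and BBBPH libraries 40.8, 39.3, 35.4, 48.7 and 38.2. All BBBPH libraries lay above control (log2 fold change 0.63 ± 0.11 SE, adjusted p = 0.0014) and below all model libraries, at 89.6, 58.1, 79.3, 71.1 and 62.3 FPKM. Abcb11, the bile salt export pump of the canaliculus, had means of 56.6 ± 10.2 FPKM in control and 42.7 ± 8.52 in BBBPH (log2 fold change -0.40 ± 0.13 SE, adjusted p = 0.0322). Its groups overlapped through BBBPH 3_2, at 57.7 FPKM, and the call was lost in 11 of 30 alternatives, among them the omission of control 1_1, 2_1 or 3_4 or of BBBPH 2_1, 2_2, 3_1 or 3_4 (adjusted p between 0.0076 and 0.137). Slc10a1, the sodium-dependent uptake carrier, had means of 380.4 ± 62.5 FPKM in control and 421 ± 80.3 in BBBPH and was not called (log2 fold change 0.14 ± 0.14 SE, adjusted p = 0.477). Slco2b1, an organic anion carrier, rose from 29 ± 4.37 to 41.2 ± 7.08 FPKM (log2 fold change 0.49 ± 0.11 SE, adjusted p = 0.00563).

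**Figure D4:**
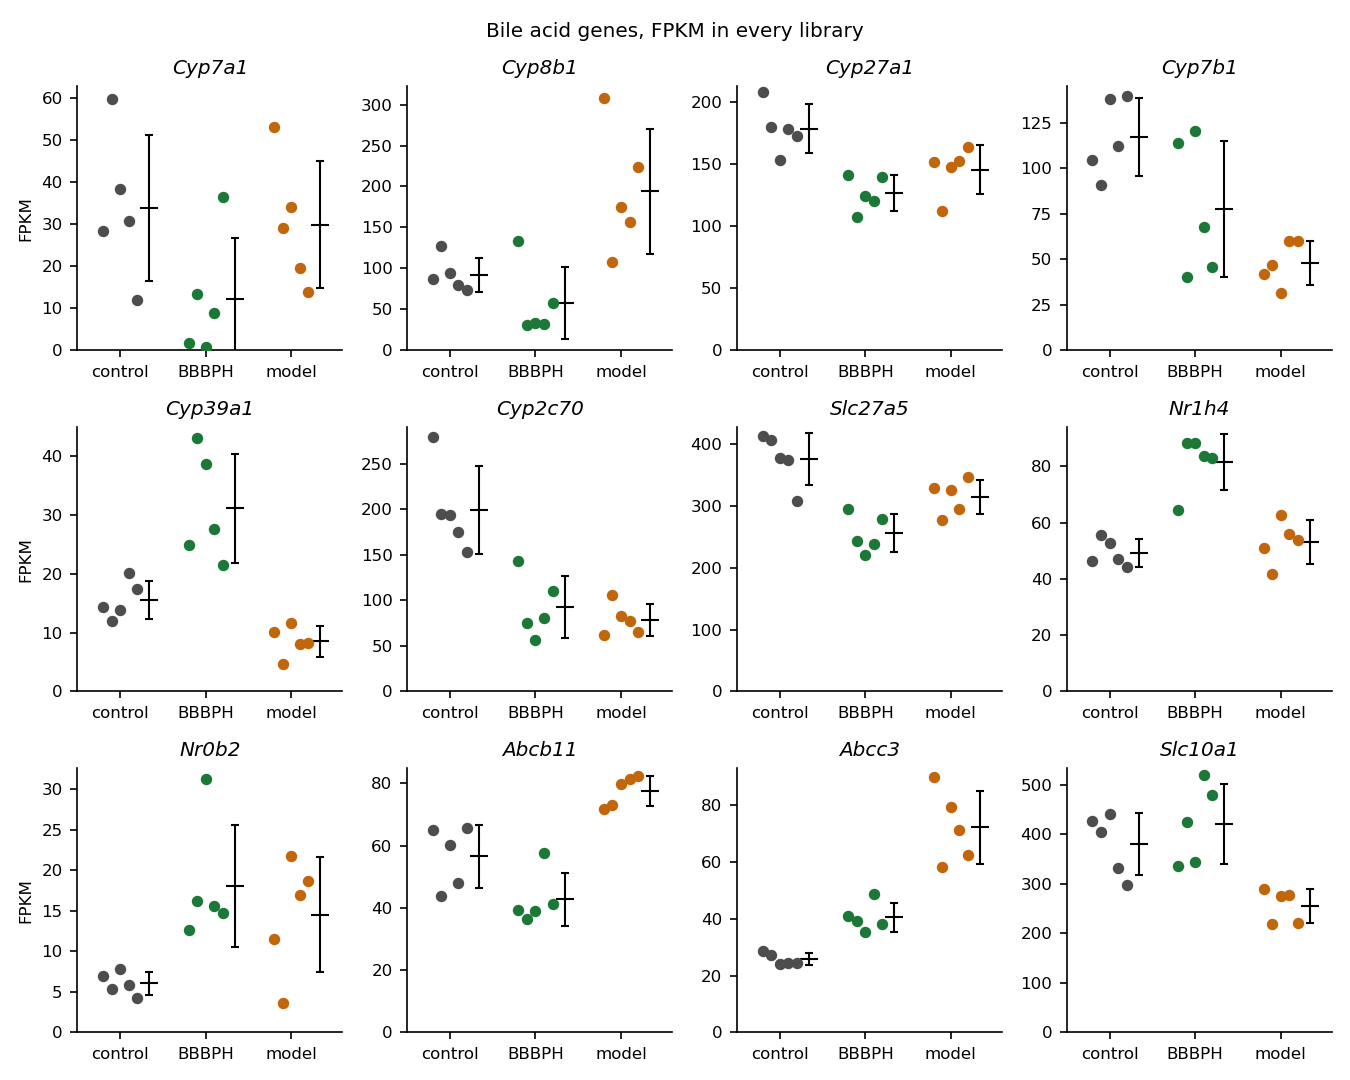
FPKM (linear axis) of 12 genes of bile acid synthesis, sensing and transport in every library, with the mean and SD of each group of 5 beside the points. Nr1h4 and Cyp39a1 are highest in BBBPH libraries, Cyp7a1 spreads from 0.696 to 36.5 FPKM among them, and Abcc3 is at a middle level between control and model.

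Drug metabolism genes governed by the receptors PXR and CAR were lower where they were called. Of 24 tested members 0 rose and 7 fell (median log2 fold change -0.444), 9 with median-ratio scaling and 6 without control 2_1 and BBBPH 2_2. Ces2a, a carboxylesterase, fell from 106 ± 12.7 to 47.5 ± 7.74 FPKM (log2 fold change -1.14 ± 0.13 SE, adjusted p = 9.07e-05), beside the 44.1 FPKM of the model. Ugt2b1, a glucuronosyltransferase, fell likewise from 265 ± 24.9 to 132 ± 22.4 FPKM (log2 fold change -1.02 ± 0.17 SE, adjusted p = 0.00116), with 126 FPKM in the model. Cyp2c29, a P450, Gsta2, a glutathione transferase, and Alas1, the first enzyme of haem synthesis, fell in BBBPH and were not called in the model. Their log2 fold changes were -1.10, -1.12 and -1.44 (adjusted p = 0.00363, 0.0163 and 0.0119), and -0.01, 0.12 and -0.08 in model against control. All 3 were also lower in BBBPH than in model (adjusted p = 0.00275, 0.00847 and 0.0152). Cyp3a11, the main inducible P450 of mouse liver, had means of 916 ± 223 FPKM in control and 527 ± 82 in BBBPH. For Cyp3a11, the controls stood at 1217, 657, 806, 1067 and 834 FPKM and the BBBPH libraries at 591, 585, 546, 525 and 389. Its groups did not overlap, yet it was not called (log2 fold change -0.78 ± 0.29 SE, adjusted p = 0.059), except with a fit of 2 groups, library weights or median-ratio scaling, without model 1_1 or 1_4, or with 3 libraries out (adjusted p between 0.00776 and 0.13 over the alternatives). Cyp2b10, the usual sign of CAR activation, was listed at 0 in all controls and at 0.0403 to 0.239 FPKM in BBBPH libraries, too low to be tested.

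Genes that differ between the sexes in mouse liver gave an uneven picture. Of 26 tested male-biased genes 1 rose and 4 fell (median log2 fold change -0.488), and the number lower ranged from 2 (without control 2_1, control 2_2 or BBBPH 3_4, or without control 2_1 and BBBPH 2_2) to 8 (without BBBPH 3_1), with 7 without BBBPH 2_1. In model against control 0 were higher and 19 lower, and in BBBPH against model 8 were higher and 1 lower. Hsd3b5, a steroid enzyme of male liver, was not called in BBBPH. Levels of Hsd3b5 were 145, 169, 181, 146 and 143 FPKM in control and 88.4, 73.2, 176, 125 and 96.1 in BBBPH. BBBPH 3_1 lay within the control range and the other 4 BBBPH libraries below it (log2 fold change -0.55 ± 0.55 SE, adjusted p = 0.471), while the model libraries held 3.74, 5.35, 1.39, 10.5 and 47.6 FPKM (log2 fold change -4.24 in model against control, adjusted p = 5.69e-05). The SE of Hsd3b5 rests on all 3 groups, among them these widely spread model libraries. It was not called in any alternative (adjusted p between 0.0589 and 0.716). Cyp4a12b remained lower than control. Cyp4a12b stood at 39.7, 30.4, 33.9, 32.1 and 43.5 FPKM in control libraries and at 17.7, 3.94, 27.4, 7.1 and 3.88 in BBBPH libraries. The highest BBBPH library, 3_1, lay below the lowest control (log2 fold change -1.86 ± 0.48 SE, adjusted p = 0.0113). Mup14, a major urinary protein gene outside the list, fell from 902 ± 186 to 198 ± 196 FPKM (log2 fold change -2.86 ± 0.76 SE, adjusted p = 0.0124), and lost its call with 3 libraries out (adjusted p = 0.0538, 0.00512 to 0.0538 over the alternatives). Of 22 female-biased genes measured, 7 passed the filter and were tested. Cyp2b9, with a control mean of 0.09 FPKM, passed it only through its BBBPH values. Of the 7 tested, 2 rose, Cyp2b9 and Abcd2, a peroxisomal fatty acid transporter (log2 fold change 1.04 ± 0.28 SE, adjusted p = 0.0138). The number was 3 without BBBPH 2_1 and 1 without control 2_1 and BBBPH 2_2. Beside the counts of both lists, 24.5% of all genes tested were higher in BBBPH and 3.76% lower. Cyp2b9, Cyp4a12b, Mup14 and the Ugt2b genes belong to families of near-identical copies, and reads may be split between them.

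Some cytosolic chaperones of the heat shock response were lower in BBBPH than in control livers. Heat shock factor HSF1 drives these genes, which fold damaged proteins. Of 27 members, all tested, 1 rose, Hsf1 itself, and 11 fell (median log2 fold change -0.332). Hsf1 lost its call under median-ratio scaling (0 higher, 14 lower) and without control 2_1 and BBBPH 2_2 (0 higher, 11 lower). In model against control 11 were higher and 1 lower, and in BBBPH against model 0 were higher and 18 lower.

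The inducible Hsp70 genes fell most. Control libraries held 26.5, 58.6, 49.2, 69.8 and 76.5 FPKM of Hspa1b, and BBBPH libraries 6.39, 4.56, 5.97, 5.3 and 2.99. No BBBPH library exceeded 6.39 FPKM and no control fell below 26.5 (log2 fold change -3.19 ± 0.38 SE, adjusted p = 0.000114), and model libraries held 163, 68.5, 26.3, 52.3 and 46.4 FPKM. Hspa1a, its neighbour and near-identical copy, fell from 7.75 ± 2.26 to 0.329 ± 0.11 FPKM (log2 fold change -2.68 ± 0.34 SE, adjusted p = 0.000175), and counts may be split between the pair. Hsph1, a nucleotide exchange factor of Hsp70, fell without overlap. For Hsph1, the controls stood at 27.8, 27.8, 24.3, 29.3 and 32.9 FPKM and the BBBPH libraries at 8.33, 6.82, 9.76, 6.78 and 6.44. BBBPH libraries were below both other groups (log2 fold change -1.78 ± 0.17 SE, adjusted p = 2.27e-05), with the model at 53.5, 38.1, 23.3, 38 and 41.5 FPKM (log2 fold change 0.40 in model against control, adjusted p = 0.0696). Dnajb4, an Hsp40 co-chaperone, had one of the smallest adjusted p-values of the comparison. Levels of Dnajb4 were 13.3, 13.8, 13.6, 15.3 and 13 FPKM in control and 5.38, 4.46, 4.87, 4.78 and 5.42 in BBBPH. Its spread within each group was small beside the difference (log2 fold change -1.31 ± 0.09 SE, adjusted p = 1.49e-06). Bag3, which hands clients to autophagy, fell from 27.9 ± 3.19 to 10.4 ± 1.89 FPKM (log2 fold change -1.35 ± 0.18 SE, adjusted p = 0.000296). Dnajb1, Dnaja1 and Chordc1, further co-chaperones, had log2 fold changes of -1.31, -0.69 and -0.77 (adjusted p = 8.93e-05, 0.000791 and 0.000277). Chaperonins of the mitochondria, Hspd1 and Hspe1, had 0.06 and 0.03 and were not called (adjusted p = 0.582 and 0.877).

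Promoters of these genes were searched for GAANNTTC, a pair of inverted units of the heat shock element, which reads the same on both strands. It was found in 6 of the 9 genes that fell and had a RefSeq promoter (Hspa1a, Hspa1b, Hsph1, Chordc1, Dnaja1 and Bag3), and in 7.18% of the promoters of 7716 tested genes and 9.04% of 27025 genes. The 3 stretches shown are those whose match lies before the start site, with the motif in capitals, at chr17:34972233-34972280 on the minus strand for Hspa1a, chr17:34959315-34959362 on the minus strand for Hspa1b and chr4:40722324-40722371 on the plus strand for Dnaja1.
Hspa1a: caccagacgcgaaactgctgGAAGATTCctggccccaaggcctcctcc
Hspa1b: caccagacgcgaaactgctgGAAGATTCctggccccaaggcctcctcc
Dnaja1: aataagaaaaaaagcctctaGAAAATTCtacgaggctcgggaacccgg
The stretches of Hspa1a and Hspa1b have the same letters and begin 124 bases before each start site, and that of Dnaja1 begins 144 bases before its own. These matches are descriptions of sequence, not sites of binding.

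Genes of the unfolded protein response, which relieves stress of the endoplasmic reticulum, were near or below control in dosed livers. Of 28 members, all tested, 1 rose, Derl1, and 5 fell (median log2 fold change -0.046), 0 and 6 with median-ratio scaling. The model showed 23 higher and 0 lower against control, and BBBPH against model 0 higher and 22 lower. Hspa5, which encodes the chaperone BiP, lies at chromosome 2, 34771970 to 34777547. Hspa5 stood at 250.3, 231, 336, 324 and 270.1 FPKM in control libraries and at 165, 165, 235, 174 and 136 in BBBPH libraries. BBBPH 3_1, at 235 FPKM, reached into the control range (log2 fold change -0.69 ± 0.16 SE, adjusted p = 0.00626), while model libraries held 992, 883, 618, 714 and 1004 FPKM (log2 fold change 1.56 in model against control, adjusted p = 9.21e-06). Herpud1, a part of the degradation complex, was below control without overlap. Control libraries held 196, 271, 339, 369 and 294 FPKM of Herpud1, and BBBPH libraries 136, 159, 183, 158 and 160.4. It was thus called lower in BBBPH (log2 fold change -0.85 ± 0.16 SE, adjusted p = 0.00232) and higher in the model (log2 fold change 0.96 in model against control, adjusted p = 0.000476). Dnajb9, a BiP co-chaperone, fell from 69.5 ± 15.1 to 37.4 ± 6.9 FPKM (log2 fold change -0.86 ± 0.16 SE, adjusted p = 0.00177) and rose in the model (log2 fold change 0.74 in model against control, adjusted p = 0.00232). Ddit3, the stress-induced factor CHOP, had means of 2.87 ± 0.939 FPKM in control and 1.39 ± 0.294 in BBBPH and was not called (log2 fold change -0.67 ± 0.25 SE, adjusted p = 0.0596), except with a pseudocount of 0.1, TPM, quantile scaling, library weights, a fit of 2 groups or without model 1_1 or 2_1 (adjusted p between 0.00498 and 0.148 over the alternatives). For Hyou1 and Creld2, 2 further chaperones, the log2 fold changes were -0.27 and -0.20 in BBBPH (adjusted p = 0.307 and 0.586) and 1.55 and 2.25 in the model (adjusted p = 4.58e-05 and 2.37e-05).

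**Figure D5:**
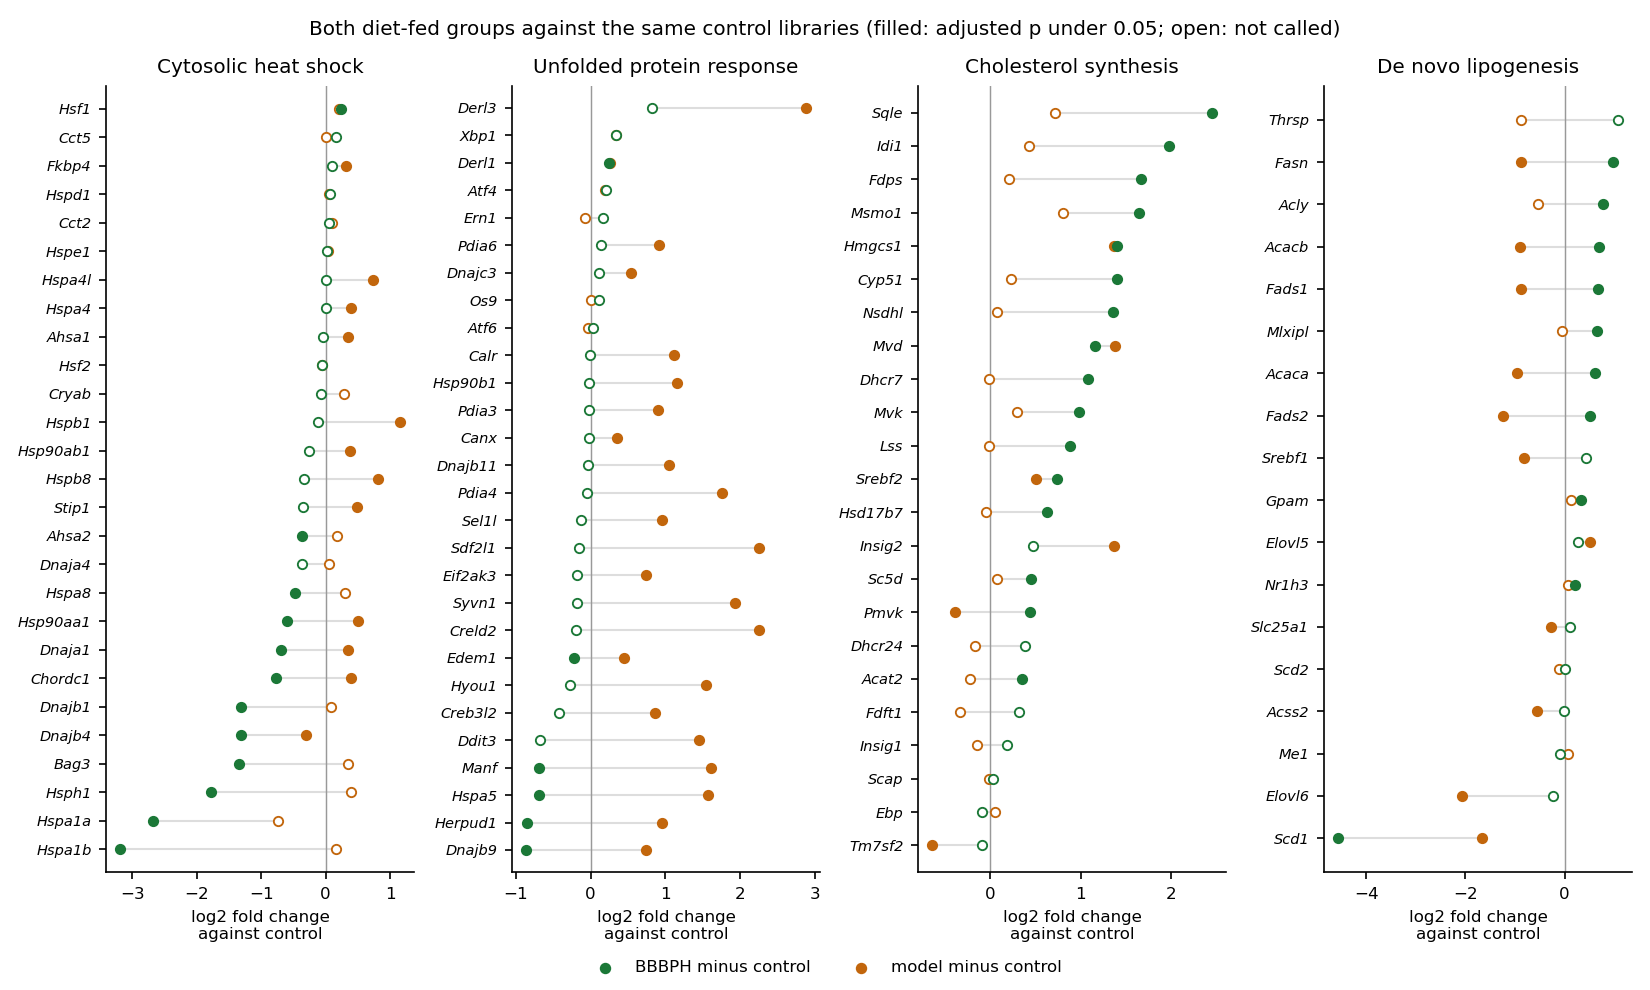
Log2 fold changes on log2(FPKM + 1) of every tested member of 4 gene lists, in BBBPH (green) and in model (orange) against the same 5 control libraries, filled where called. In BBBPH 11 of 27 heat shock genes are called lower, in the model 23 of 28 unfolded protein response genes are called higher, and 16 of 23 genes of cholesterol synthesis are called higher in BBBPH against 4 in the model.

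Genes of growth and immediate early responses included some of the deepest falls. Of 19 tested members 1 rose, Gadd45b, and 5 fell (median log2 fold change -0.328), with 1 and 5 also under median-ratio scaling and without control 2_1 and BBBPH 2_2. Gadd45g, a stress-induced growth inhibitor, was low in all dosed livers. For Gadd45g, the controls stood at 56, 33.2, 45.4, 61.5 and 141 FPKM and the BBBPH libraries at 5.49, 1.48, 9.17, 1.32 and 7.26. Its highest BBBPH value, 9.17 FPKM, was below the lowest control (log2 fold change -3.59 ± 0.58 SE, adjusted p = 0.000797), and model libraries held 6.79, 43.3, 3.65, 7.35 and 4.69 FPKM. Myc, a driver of growth, fell as well. Levels of Myc were 14.3, 9.9, 20.3, 20.6 and 38.6 FPKM in control and 1.05, 1.82, 1.36, 0.956 and 2.61 in BBBPH. BBBPH libraries held at most 2.61 FPKM (log2 fold change -2.99 ± 0.45 SE, adjusted p = 0.000573). Phlda1, Foxq1 and Plk3, outside the list, are an apoptosis-related protein, a forkhead factor and a stress kinase, and fell from 125 ± 33.3 to 15.9 ± 10.6 FPKM, from 31.1 ± 11.6 to 5.09 ± 2.98 FPKM and from 44.4 ± 27.4 to 7.48 ± 3.73 FPKM (log2 fold changes -3.02, -2.45 and -2.33, adjusted p = 0.00062, 0.000791 and 0.00338). In the model Gadd45g, Myc, Phlda1 and Foxq1 were lower than control as well (log2 fold changes -2.67, -2.19, -1.77 and -1.90), while Plk3 was not called (log2 fold change -0.72 in model against control, adjusted p = 0.25). Model 1_4 was the highest model library for all 5 of these genes. None of 10 tested genes of growth arrest and cell cycle was called in BBBPH, against 5 higher in the model. Among them Cdkn1a, the p53 target p21, had values that were 10 FPKM in BBBPH 2_1 and 0.376 to 0.73 in the other BBBPH libraries, and 0.936 to 2.58 in control (log2 fold change -0.03 ± 0.48 SE, adjusted p = 0.972).

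Few inflammatory genes were called against control. Of 32 cytokines, chemokines and innate sensors measured, 20 were tested. Of these 3 rose and 0 fell, with 1 under median-ratio scaling and 5 without BBBPH 2_1, against 10 higher in the model. For comparison, 24.5% of all genes tested were higher in BBBPH and 3.76% lower. The interferon response had 2 of 24 higher in BBBPH (0 with median-ratio scaling, 4 without BBBPH 2_1) and 19 higher and 1 lower in the model. Ccl2, which draws monocytes, lay at 0.301 to 0.994 FPKM in control, 0.649 to 1.63 in BBBPH and 1.88 to 8.24 in model libraries, and its mean was too low to be tested. Ifi27l2b, an interferon-inducible gene outside the list, rose. Ifi27l2b stood at 3.75, 3.15, 3.64, 3.17 and 1.8 FPKM in control libraries and at 28.2, 26.7, 11.2, 20.1 and 7.27 in BBBPH libraries. The lowest BBBPH library, 3_4, lay above the highest control (log2 fold change 2.13 ± 0.32 SE, adjusted p = 0.000519). Ifi27l2b was higher in the model as well (log2 fold change 1.72 in model against control, adjusted p = 0.000788). BBBPH and model were not called different in it (adjusted p = 0.374).

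Of 25 tested acute phase genes 4 rose and 2 fell in BBBPH (2 and 2 with median-ratio scaling), and 14 rose and 1 fell in the model. Of all genes tested 24.5% were higher and 3.76% lower in BBBPH. Without model 1_4, the library with the highest Saa1 value, 11 were called higher in BBBPH. Saa3, a serum amyloid that macrophages also make, rose from 6.18 ± 1.81 to 21.4 ± 5.65 FPKM (log2 fold change 1.64 ± 0.36 SE, adjusted p = 0.00463). Lbp, which binds bacterial lipopolysaccharide, rose from 30.2 ± 8 to 51.5 ± 5.76 FPKM (log2 fold change 0.78 ± 0.16 SE, adjusted p = 0.0032), and rose in the model (log2 fold change 0.94 in model against control, adjusted p = 0.000438). Saa1, a main serum amyloid of hepatocytes, was uneven. Control libraries held 21.9, 50.7, 30.4, 26.6 and 16 FPKM of Saa1, and BBBPH libraries 196, 19.2, 33.9, 24.3 and 49.7. BBBPH 2_1 was high and the other BBBPH libraries overlapped the controls (log2 fold change 0.67 ± 1.002 SE, adjusted p = 0.638).

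Of 17 tested genes of the extracellular matrix 6 rose and 0 fell, beside 24.5% higher and 3.76% lower of all genes tested. Their median log2 fold change of 0.097 was below the 0.132 of all genes. With median-ratio or quantile scaling 0 were called, and 3 were called without control 2_2 or BBBPH 3_2. Sparc and Col4a1, a matrix binding protein and a basement membrane collagen, rose from 20.7 ± 1.49 to 27.6 ± 3.81 FPKM and from 3.62 ± 0.958 to 5.5 ± 0.415 FPKM (log2 fold changes 0.40 and 0.52, adjusted p = 0.0146 and 0.0154), below the model means of 35.1 and 9.65 FPKM. Both calls were lost with those scalings. Col1a1, a chain of type I collagen, lay at 0.464 to 1.24 FPKM in control, 0.46 to 1.33 in BBBPH and 1.25 to 3.65 in model libraries, and Timp1, a protease inhibitor, at 0.0615 to 0.25, 0.0309 to 0.519 and 0.156 to 2.05. Neither was tested because of its low mean. Sums of stellate cell markers, on FPKM without rescaling, were higher in BBBPH than in control, as given above. Their part in the matrix genes was not tested.

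Calls of antigen presentation, antioxidant and proteasome genes depended on scaling. Of all genes tested 24.5% were called higher. Of 14 tested antigen presentation genes 5 rose, 1 with median-ratio scaling and 8 without BBBPH 3_2. Tap2 and H2-D1, a peptide transporter and a class I heavy chain, had log2 fold changes of 0.43 and 0.33 (adjusted p = 0.00602 and 0.00701), and lost their calls with median-ratio scaling (adjusted p = 0.0529 and 0.203). Of 34 proteasome genes 8 rose, which is near the 24.5% of all genes, and 0 with median-ratio scaling or 5 without BBBPH 3_2, against 29 in the model. Psmc3 and Psmc5, subunits of the regulatory particle, rose from 54.8 ± 3.57 to 68.7 ± 6.38 FPKM and from 36.8 ± 2.3 to 43.6 ± 2.15 FPKM, with 77.9 and 53.4 FPKM in the model. Both calls were lost with median-ratio scaling (adjusted p = 0.12 and 0.455). Of 27 antioxidant genes 5 rose and 1 fell (0 and 2 with median-ratio scaling, 2 and 1 without control 2_1 and BBBPH 2_2), with 2 higher without control 2_1 and 3 without control 1_1, 2_2 or 3_4 or BBBPH 2_2 or 3_4. The share that rose was below that of all genes, and the list median of 0.049 was below their 0.132. Keap1 and Sod3, the NRF2 repressor and an extracellular dismutase, rose by 0.26 and 0.40 on the log2 scale (adjusted p = 0.00295 and 0.016), and lost their calls with median-ratio or quantile scaling.

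The metallothioneins Mt1 and Mt2, small metal-binding proteins on that list, were higher in all dosed livers. For Mt2, the controls stood at 4.53, 13.5, 8.35, 10.04 and 12.7 FPKM and the BBBPH libraries at 78.7, 48.1, 15.7, 30.1 and 168. The groups did not overlap, as the rule required, but BBBPH values ranged from 15.7 to 168 FPKM (log2 fold change 2.31 ± 0.74 SE, adjusted p = 0.0302). Mt1 rose too (log2 fold change 1.89 ± 0.65 SE, adjusted p = 0.0407). Both calls were lost with a robust fit, no filter, 2 libraries out, or quantile or median-ratio scaling, and without control 1_1, 2_1 or 2_2 or BBBPH 2_1 or 3_4. That of Mt2 was lost with voom as well, and that of Mt1 without control 3_4 or BBBPH 2_2 (adjusted p between 0.0039 and 0.1 for Mt2 and between 0.00626 and 0.0975 for Mt1). In model against control Mt2 and Mt1 were higher too (log2 fold changes 3.21 and 2.26, adjusted p = 0.00351 and 0.013).

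Some genes of amino acid breakdown and the urea cycle were lower in BBBPH. Of 28 members, all tested, 1 rose, the glutamine synthetase Glul, and 13 fell (median log2 fold change -0.385). With median-ratio scaling 0 rose, Glul losing its call, and 16 fell. The number that fell was 9 without control 2_1 and BBBPH 2_2, and 8 without control 1_1. Tat, the tyrosine aminotransferase, fell without overlap. Levels of Tat were 266, 302, 499, 544 and 353 FPKM in control and 206, 93.8, 95, 111 and 133 in BBBPH. Its highest BBBPH library, 2_1 at 206 FPKM, was below the lowest control (log2 fold change -1.62 ± 0.26 SE, adjusted p = 0.000724), and BBBPH was below model (log2 fold change -1.16 against model, adjusted p = 0.00393). Slc7a2, which imports arginine and lysine, fell from 66.1 ± 13.5 to 31.4 ± 2.95 FPKM (log2 fold change -1.03 ± 0.14 SE, adjusted p = 0.000301), and fell in the model (log2 fold change -0.71 in model against control, adjusted p = 0.00133). Cps1 and Ass1, enzymes of the urea cycle, had log2 fold changes of -0.73 and -0.72 (adjusted p = 0.000771 and 0.0219), against -1.02 and -0.81 in the model. Acmsd, an enzyme of tryptophan breakdown that was named by the rule outside the list, fell from 6.97 ± 1.8 to 1.97 ± 0.598 FPKM (log2 fold change -1.42 ± 0.16 SE, adjusted p = 8.93e-05), beside a model mean of 1.59 FPKM.

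Glucose and glycogen genes moved in both directions. Of 25 members, all tested, 9 rose and 3 fell (3 and 4 with median-ratio scaling), with 5 higher without control 1_5, control 3_4, BBBPH 2_2 or BBBPH 3_2. Pck1, the gatekeeper of gluconeogenesis, fell. Pck1 stood at 1098, 1037, 1340.0, 1388 and 1404 FPKM in control libraries and at 737, 356, 769, 375 and 435 in BBBPH libraries. The highest BBBPH library, 3_1 at 769 FPKM, lay below the lowest control (log2 fold change -1.30 ± 0.23 SE, adjusted p = 0.00144). Pck1 was lower in the model as well (log2 fold change -0.98 in model against control, adjusted p = 0.00414). Pfkfb3, an activator of glycolysis, fell from 9.7 ± 1.3 to 2.44 ± 1.12 FPKM (log2 fold change -1.69 ± 0.24 SE, adjusted p = 0.000378). Ppp1r3c, which targets a phosphatase to glycogen, rose from 3.74 ± 1.43 to 18.3 ± 13.7 FPKM (log2 fold change 1.84 ± 0.39 SE, adjusted p = 0.00367), with 22.4 FPKM in the model. Pklr, the liver pyruvate kinase, rose with overlapping groups (log2 fold change 0.92 ± 0.31 SE, adjusted p = 0.0359). Of 25 tested genes of insulin signalling 3 rose and 2 fell (of all genes tested 24.5% and 3.76%), against 1 and 7 with median-ratio scaling. Those that fell were Foxo3, a transcription factor that insulin inactivates (log2 fold change -0.59 ± 0.09 SE, adjusted p = 0.000594), and Ghr, the growth hormone receptor (log2 fold change -0.30 ± 0.08 SE, adjusted p = 0.00986). In model against control Foxo3 was lower as well (log2 fold change -0.32, adjusted p = 0.0122), and Ghr was not called (adjusted p = 0.11).

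Of 23 apolipoprotein and lipoprotein genes, all tested, 5 rose and 2 fell, where 24.5% of all genes rose and 3.76% fell. The counts were 2 and 5 with median-ratio scaling, and 1 and 2 without control 2_1 and BBBPH 2_2. The number higher was 2 without control 2_2 and 3 without control 2_1, control 3_4, BBBPH 2_2 or BBBPH 3_4. Apoa4, an apolipoprotein that rises with hepatic fat export, was higher. Control libraries held 377, 214, 351, 404 and 245 FPKM of Apoa4, and BBBPH libraries 802, 1249, 840, 1040.0 and 678. All BBBPH libraries lay above all controls (log2 fold change 1.54 ± 0.26 SE, adjusted p = 0.00116), overlapping the model, at 945, 900.2, 768, 1083 and 370 FPKM. Apoc1, an inhibitor of lipoprotein uptake, fell from 5945 ± 423 to 4087 ± 469.7 FPKM (log2 fold change -0.54 ± 0.10 SE, adjusted p = 0.00155) and was not called in the model (log2 fold change -0.02 in model against control, adjusted p = 0.905).

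Among the clock genes 1 library stood apart. Of 17 tested members 4 rose and 1 fell, where 24.5% of all genes tested were higher and 3.76% lower, so the share called was near the background. The counts were 2 and 2 with median-ratio scaling, and 2 rose without control 2_1 and BBBPH 2_2 and without control 3_4, BBBPH 2_2, BBBPH 3_1 or BBBPH 3_2. Per1, a clock repressor that also answers to glucocorticoids, fell from 3.8 ± 0.727 to 1.67 ± 0.64 FPKM (log2 fold change -0.87 ± 0.18 SE, adjusted p = 0.0031). Hlf, an output factor, rose from 12 ± 1.71 to 17.3 ± 2.64 FPKM (log2 fold change 0.50 ± 0.11 SE, adjusted p = 0.00536). Dbp, another output factor, was not called (log2 fold change -0.03 ± 0.58 SE, adjusted p = 0.979). For Dbp, the controls stood at 21.5, 31.7, 38.3, 29.3 and 14.6 FPKM and the BBBPH libraries at 3.51, 36.3, 30.8, 52.1 and 43. BBBPH 2_1 lay far below the other BBBPH libraries, and without it the log2 fold change of Dbp was 0.61. In the same library Arntl, which encodes BMAL1 and peaks opposite to Dbp, was at 1.03 FPKM, against 0.0876 to 0.206 in the other BBBPH libraries and 0.1 to 0.447 in control. Without BBBPH 2_1, 2474 genes were higher and 315 lower in the whole comparison. Collection times are not given, and the part of the clock in the other results was not tested.

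The rule also named genes that were called in the same direction in both diet-fed groups and not called between them, which does not show that the groups are alike. Of these Mt1, Ppp1r3c, Pcp4l1 and Saa3 rose and Cyp4a12b, Noct, Pfkfb3 and Acmsd fell. Noct, a deadenylase of circadian lipid metabolism, fell from 13.8 ± 6.12 to 3.01 ± 1.36 FPKM (log2 fold change -1.86 ± 0.29 SE, adjusted p = 0.00072), with 4.57 FPKM in the model. Pcp4l1, a small calmodulin-binding protein of little known function in liver, rose from 4.34 ± 1.57 to 16.6 ± 5 FPKM (log2 fold change 1.73 ± 0.26 SE, adjusted p = 0.00062), with 11.6 FPKM in the model.

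Other genes differed from control and from model in the same direction. Srsf5, a splicing factor, was highest in dosed livers. Levels of Srsf5 were 22.6, 51.9, 29.3, 35.2 and 21 FPKM in control and 56.3, 57.8, 79, 82.5 and 70.4 in BBBPH. The lowest BBBPH library lay above the highest control, 1_5 at 51.9 FPKM (log2 fold change 1.15 ± 0.19 SE, adjusted p = 0.00104), and above all model libraries (log2 fold change 1.62 against model, adjusted p = 4.38e-05). P4ha1, a subunit of the collagen prolyl hydroxylase, was lowest in them. P4ha1 stood at 8.97, 8.19, 8.8, 9.56 and 9.84 FPKM in control libraries and at 3.09, 2.49, 3.48, 2.54 and 2.09 in BBBPH libraries. It was below control (log2 fold change -1.44 ± 0.16 SE, adjusted p = 8.93e-05) and below model (log2 fold change -1.60 against model, adjusted p = 1.32e-05), at 14.4, 12.6, 6.12, 8.95 and 10.9 FPKM.

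A last set lay on opposite sides of control in the 2 diet-fed groups. Besides Cyp39a1, Fads1 and Herpud1, given above, these included Rcan1, a calcineurin inhibitor, and Aox3, an aldehyde oxidase. Control libraries held 64.6, 63, 66.7, 66.3 and 73.1 FPKM of Aox3, and BBBPH libraries 39.4, 42.5, 43, 55.4 and 55.3. BBBPH libraries were all below (log2 fold change -0.51 ± 0.11 SE, adjusted p = 0.00349) and model libraries, at 116, 102, 113, 144 and 116 FPKM, all above the controls (log2 fold change 0.81 in model against control, adjusted p = 5.56e-05). Rcan1 fell from 14.3 ± 2.38 to 7.92 ± 0.777 FPKM (log2 fold change -0.77 ± 0.27 SE, adjusted p = 0.046) and rose in the model (log2 fold change 0.75 in model against control, adjusted p = 0.0406). Its fall was lost in 15 of 30 alternatives, among them the omission of control 1_1, 1_5, 2_2 or 3_4, of any BBBPH library, or of model 1_1 or 2_3 (adjusted p between 0.000974 and 0.0995).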

How the data were processed

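FPKM values per gene and library were used as deposited by the authors. Per the submitters' processing notes, fastp, HISAT2, HTSeq, DESeq2 and the mm10 build were involved, with versions not given in the sources used here, and per the labels' protocols total RNA was extracted with TRIzol. The low FPKM values are whole multiples of 1 fragment. For 15537 genes 100% of the values above 0 came out whole within 0.02, and these sum to 35395424 to 39623878 fragments in the 10 libraries compared. They entered only an alternative fit with voom (2648 genes called).

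The genes whose mean over the control and BBBPH libraries reached 1 FPKM were tested on log2(FPKM + 1) with limma 3.58.1 in R 4.3.3, with 3 groups, 12 residual degrees of freedom, a mean-dependent prior and Benjamini-Hochberg adjustment over 9519 genes. Samples were grouped by their labels. Replicate numbers, whose meaning is not stated, were not used to pair the samples in the main fit. The scripts were tested on simulated data.

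Named by rule were the 8 largest rises and 8 largest falls without overlap and a higher group mean of 5 FPKM or more. To these came 4 rises and 4 falls shared with the model, 4 and 4 also called in the same direction against model and not called in model against control, and 3 and 3 opposite to the model. The same conditions on overlap and level held for these. The 2 members of smallest adjusted p in each list with at least 4 called members and a preset list of genes completed them. Some genes of the rule are not reported here, were not replaced and are not counted in the lists. Symbols of predicted genes were left out. The comparison, the 26 gene lists and the 16 marker lists were chosen with earlier results of these data known. Alternatives were other pseudocounts, filters, scalings, fits, blocks and left-out libraries.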

Additional observations from a re-analysis of the deposited data

Results flagged for a closer look

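Single values far from the other 4 of their group were looked for in 278 groups of 5 values, and 19 were found, where chance flags about 1 in 20 groups. In control libraries, Ifi27l2b was 1.80 FPKM in control 3_4 against 3.15 to 3.75 in the other controls. Foxq1 was 51.5 FPKM in control 3_4 against 23.7 to 29.6. Ddit3 was 4.52 FPKM in control 2_2 against 2.22 to 2.64. Col1a1 was 1.24 FPKM in control 2_1 against 0.464 to 0.635. Timp1 was 0.25 FPKM in control 1_1 against 0.0615 to 0.0913.

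In BBBPH libraries, Nr1h4 was 64.4 FPKM in BBBPH 2_1 against 83.1 to 88.4 in the other BBBPH libraries. In the same library Arntl was 1.03 FPKM against 0.0876 to 0.206, and Dbp was 3.51 FPKM against 30.8 to 52.1. Nr0b2 was 31.3 FPKM in BBBPH 3_1 against 12.6 to 16.2. Saa3 was 12.1 FPKM in BBBPH 3_2 against 21.7 to 27.4, and Abcb11 was 57.7 FPKM there against 36.5 to 41.2. Phlda1 was 34.8 FPKM in BBBPH 3_4 against 9.25 to 12.1, and Cyp3a11 was 389 FPKM there against 525 to 591.

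In model libraries, 5 of the 6 values belonged to model 1_4. There Mt2 was 853 FPKM against 32.6 to 83.2 in the other model libraries, Gadd45g 43.3 against 3.65 to 7.35, and Myc 16.5 against 1.36 to 3.07. Ugt2b1 was 70.2 FPKM in model 1_4 against 127 to 153, and Cyp27a1 was 112 FPKM against 148 to 164. Cd36 was 50.6 FPKM in model 3_4 against 82.6 to 92.2.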

How the results depend on the processing

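The 2691 genes called between BBBPH and control became 1470 with a filter at 5 FPKM (1228 higher), 1600 with median-ratio scaling (656 higher, 944 lower) and 1581 with quantile scaling (713 higher, 868 lower). With that filter, which tests fewer genes, the genes different between model and control numbered 2198 and the genes different between BBBPH and model 1629. For the other settings the cause was not tested. With 1 library left out in turn the total ran from 1865 (without BBBPH 3_2) to 2836 (without model 1_4), the higher genes from 1579 to 2474 and the lower from 283 to 388. They ran from 3038 to 3678 for model against control and from 2047 to 2622 for BBBPH against model. Of the 78 called named genes, 63 stayed called in all those of the 30 settings other than the blocks in which they were tested. Not every gene was tested in every setting: with the filter at 5 FPKM, 82 of the 88 named genes were. No named gene changed its direction while called.

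Same-numbered libraries did not deviate together (correlations of 8 pairs between -0.332 and 0.027). So few pairs cannot show whether the numbers pair the samples, and the labels do not state what the numbers mean. With the number as a replicate block, 183 genes were called between BBBPH and control (133 higher, 50 lower), against 1264 genes different between model and control and 277 genes different between BBBPH and model. In that fit 43 of the 88 named genes tested lost their call. It has fewer residual degrees of freedom than the 12 of the main fit, and the cause of the loss was not tested. With the first digit as the replicate block, 1541 were higher, and 3 named genes lost their call.

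Libraries held at least 35395424 fragments. The filter on a mean of 1 FPKM, not the depth, left genes such as Col1a1, Timp1, Ccl2 and Cyp2b10 untested. With 5 libraries a group, the p-values rest on the spread between these libraries.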
